A study of Mus musculus with 8 samples.

Results

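The neurotrophins and their receptors were followed in the medial entorhinal cortex (MEC) through 6 genes, the ligand genes Bdnf and Ntf3, the Trk receptor genes Ntrk2 and Ntrk3, the p75 receptor gene Ngfr and the sorting receptor gene Sort1. They were chosen from the dorsal and ventral FPKM values themselves, because Bdnf and Ntf3 have opposite gradients in these libraries, so the dorsoventral differences of the 6 genes are given as a description and carry no test. All 6 were found by symbol among the 38553 genes of the deposited table, and 5 of them passed the filter, as 13674 genes did in all (alignments sufficient for a test in the authors' table, and 1 FPKM or more on average). FPKM corrects a gene's fragment number for exon length and for the mapped fragments of a library, so levels can be compared between genes of different length. The tissue came from 13 male mice of strain C57BL/6JolaHsd aged 8 weeks, with no treatment given, in which a sagittal slice of the right MEC, 400 µm thick, was divided into a dorsal and a ventral part. The mice formed 4 groups of 3 to 4 animals, tissue was pooled within a group, and RNA of integrity number 7.1 to 8.5 gave 4 dorsal and 4 ventral libraries from 120 ng each. A library therefore stands for a pool of animals, and the spread between libraries of a region includes the spread between pools. The same 4 groups of mice gave both regions, so dorsal and ventral libraries share animals, but which libraries come from the same group is not known. Neither part was sorted by layer or cell type.

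Neurotrophins are secreted growth factors that act on neuronal survival, dendrites and synaptic strength. Brain-derived neurotrophic factor, the product of Bdnf, binds TrkB, encoded by Ntrk2, and neurotrophin-3, the product of Ntf3, binds TrkC, encoded by Ntrk3. Both Trk receptors are tyrosine kinases that signal through the MAPK, PI3K and phospholipase C pathways, and both genes also give truncated receptors without a kinase domain, of which truncated TrkB is abundant in astrocytes. Neurotrophins are made as precursors that furin and the proprotein convertases cut, and the uncut precursors bind p75, encoded by Ngfr, together with sortilin, encoded by Sort1. Sortilin also guides Bdnf precursor into the regulated secretory pathway, and transcription of Bdnf in cortical neurons is induced by synaptic activity.

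The region of a library was taken from the authors' comparison, in which the dorsal FPKM are the means of columns D1, D2, V1 and V2 and the ventral FPKM those of D3, D4, V3 and V4. For 4 of the 8 libraries the header thus names the other region, namely dorsal libraries 2 and 4 and ventral libraries 1 and 3. Values under the headers' regions, and in the 4 libraries on which both sources give the same region, are stated for the log2 ratios of the members and of the called pathway genes. Total depth was not known from the FPKM table, and relative depth, estimated on genes averaging less than 0.1 FPKM, lay between 0.832 and 1.23 of the median library. Of the 13674 genes tested with limma, 294 (2.15%) were called higher in the dorsal region (D>V) and 198 (1.45%) higher in the ventral region (V>D), at an adjusted p under 0.05 and a difference of at least 20%. With FPKM rescaled to one total per library the calls were 195 D>V and 201 V>D, so that the D>V share of calls moved from 59.8% to 49.2%. Cortical markers were present throughout, with the glutamatergic transporter gene Slc17a7 at 107 FPKM in dorsal and 105 FPKM in ventral libraries and Reln, a marker of MEC layer II, at 31.6 FPKM and 35.8 FPKM. Other markers of these lists differed, since Slc17a6, a second glutamatergic transporter gene, was D>V (log2 ratio -0.58, limma adjusted p = 0.00235) and Calb1, the other layer II marker, was V>D (0.78, limma adjusted p = 0.0306).

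The start regions of both ligand genes are shown because Bdnf and Ntf3 are the members with opposite gradients, and Bdnf has many alternative first exons. RefSeq windows on GRCm38.p6 were searched over the 250 bases before each start site, on both strands, for the cAMP response element TGACGTCA and its half-site TGACG, for the AP-1 motif TGANTCA, for the E-box CACGTG and for the EGR motif GCGTGGGCG. There were 7 windows for Bdnf, 2 for Ntf3, 1 for Ntrk2 and 1 for Ngfr. The half-site is contained in the full element. Among all 32851 windows the full element occurred in 1.55%, the half-site in 17.8%, the AP-1 motif in 6.75%, the E-box in 6.02% and the EGR motif in 0.536%. In the 11 windows of the members there were 3 matches, which are printed here with 60 bases on the strand of the gene and the match in capitals. The AP-1 match of Bdnf begins 152 bases before the start site at position 109677032, in chr2:109676853-109676912 on the plus strand. The half-site match of Bdnf lies on the opposite strand and begins 35 bases before the start site at position 109692436, in chr2:109692373-109692432. The E-box match of Ntf3 begins 231 bases before the start site at position 126166744, in chr6:126166935-126166994 on the minus strand. A match describes letters in a window and no binding was measured here.
Bdnf, AP-1: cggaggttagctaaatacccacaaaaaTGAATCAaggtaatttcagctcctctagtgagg
Bdnf, half-site: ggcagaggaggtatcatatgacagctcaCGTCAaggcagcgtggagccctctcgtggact
Ntf3, E-box: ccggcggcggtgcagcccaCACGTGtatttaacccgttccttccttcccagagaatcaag

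Bdnf was expressed at a higher level in every dorsal library than in any ventral library. The gene (ENSMUSG00000048482) lies on the plus strand of GRCm38 at chr2:109674700-109727007, where GENCODE M21 lists 11 transcripts from 9 start sites. Its FPKM was 13.6, 12.6, 13.0 and 11.6 in dorsal libraries 1 to 4 and 8.93, 6.63, 8.38 and 8.47 in ventral libraries 1 to 4. The lowest dorsal library thus lay above the highest ventral library, and ventral library 2 was the lowest of all. The means were 12.7 ± 0.868 FPKM (SD, n = 4) in the dorsal and 8.10 ± 1.01 FPKM (SD, n = 4) in the ventral region, a difference of 1.57-fold and a log2 ratio of ventral over dorsal of -0.65 ± 0.10 (SE). In the fit across all genes Bdnf was the 1 member on the D>V side of the call, for which the share of all genes is 2.15%, and the 1 member whose dorsal libraries all lay above the ventral ones, for which it is 6.17%. Nothing is read from these counts, since the contrast chose the members. Under the headers' regions the log2 ratio was -0.16, and in the 4 libraries on which both sources give the same region it was -0.82. FPKM sums over the transcripts of a gene, so the share of each Bdnf start site is not known, and exons of Bdnf overlap the gene model Gm45346. In these bulk samples fewer cells of a type and less RNA per cell cannot be told apart.

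Ntf3 had the opposite gradient and a larger ratio. The gene (ENSMUSG00000049107) lies on the minus strand at chr6:126101412-126166910 and has 3 annotated transcripts. Its FPKM was 0.662, 0.441, 0.486 and 0.825 in dorsal libraries 1 to 4 and 2.38, 2.06, 2.21 and 2.35 in ventral libraries 1 to 4. Every ventral library lay above every dorsal library, and dorsal library 4 was the highest of the dorsal libraries. The means were 0.603 ± 0.176 FPKM (SD, n = 4) and 2.25 ± 0.145 FPKM (SD, n = 4), so that the ventral level was 3.73-fold the dorsal level, a log2 ratio of 1.90 ± 0.21 (SE). On the log2(FPKM + 1) scale of the fit, which understates the change of low genes, the difference was 1.02 ± 0.11 (SE). Ntf3 was the 1 member on the V>D side of the call, beside 1.45% of all genes, and with Ntrk2 made up the 2 members whose ventral libraries all lay above the dorsal ones, beside 4.95% of all genes. Here too nothing is read from the counts, since the contrast chose the members. The mean of Ntf3 over the 8 libraries, 1.43 FPKM, was higher than that of only 7.20% of the genes tested, and the dorsal level was below 1 FPKM in each library. Under the headers' regions the log2 ratio was -0.016, and in the 4 libraries on which both sources give the same region it was 1.94.

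The ratio of the ligand genes to each other did not overlap between regions, which follows from their opposite gradients without overlap. The FPKM of Bdnf was 20.6, 28.5, 26.7 and 14.0 times that of Ntf3 in dorsal libraries 1 to 4 and 3.76, 3.22, 3.79 and 3.61 times in ventral libraries 1 to 4. The ratio varied more among dorsal libraries, where Ntf3 was low, than among ventral libraries, at 22.4 ± 6.54 (SD, n = 4) and 3.59 ± 0.262 (SD, n = 4). Over the 8 libraries Pearson's correlation of log2(FPKM + 1) between Bdnf and Ntf3 was -0.90, and it was 0.12 after the region means were subtracted. The points of the first value share the regional difference, which is what chose the genes.

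**Figure D1:**
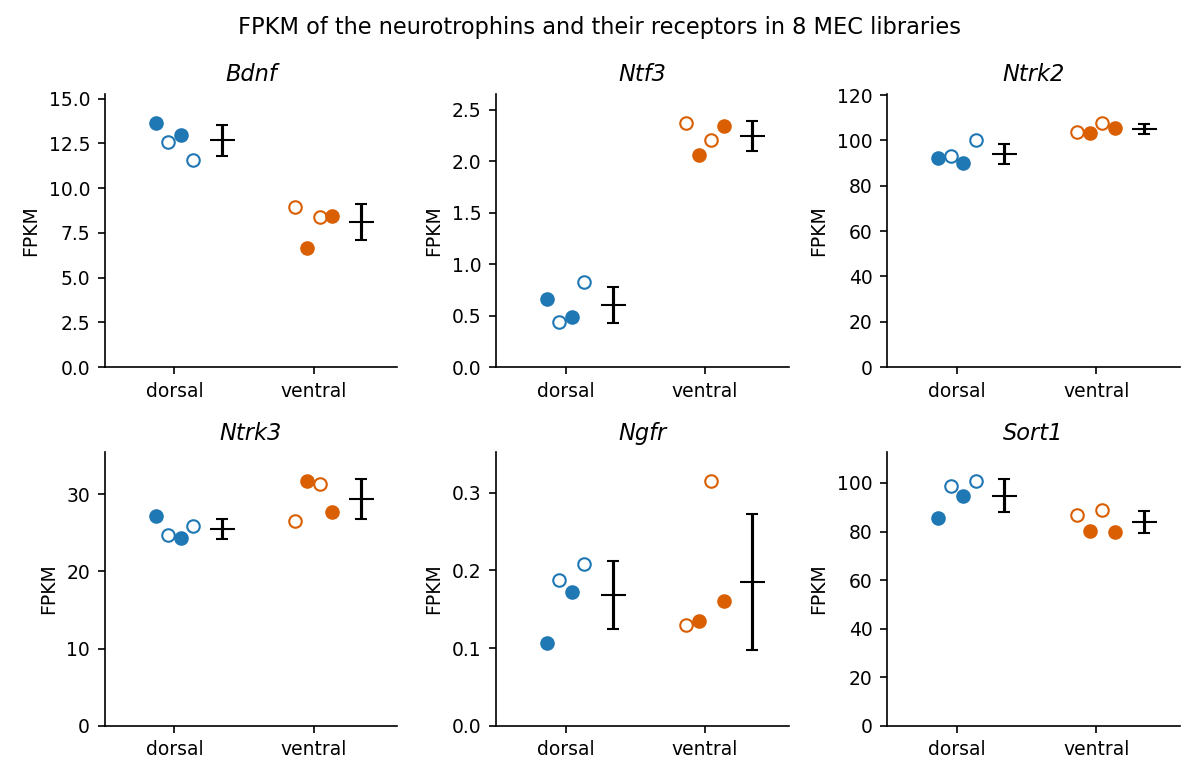
FPKM (vertical axis, from 0) of the 6 genes in the dorsal (blue) and ventral (orange) MEC libraries, 1 point per library, with the mean and SD in black; open circles are libraries whose header names the other region. The dorsal and ventral points of Bdnf, Ntf3 and Ntrk2 do not overlap, while those of Ntrk3, Ngfr and Sort1 do.

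**Figure D2:**
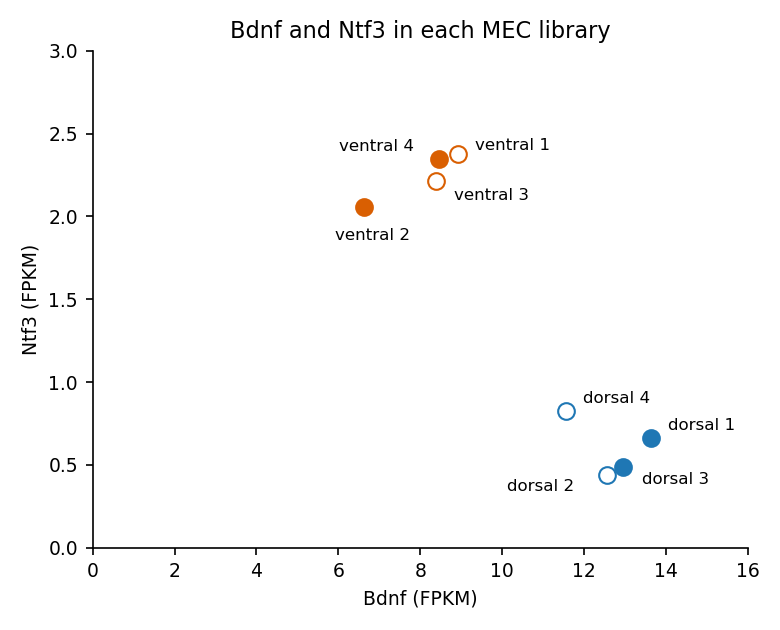
FPKM of Ntf3 (vertical axis) against that of Bdnf (horizontal axis) in each library, dorsal in blue and ventral in orange, with open circles where the header names the other region. The dorsal libraries lie at 11.6 to 13.6 FPKM of Bdnf and the ventral libraries at 2.06 to 2.38 FPKM of Ntf3, with no library between the groups.

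The receptor genes had smaller differences than their ligands. Ntrk2, on the plus strand at chr13:58806569-59133970, had 92.4, 93.1, 90.0 and 100.3 FPKM in dorsal libraries 1 to 4. In ventral libraries 1 to 4 it had 103.5, 103.2, 107.7 and 105.4 FPKM. The regions did not overlap, although dorsal library 4 came close to the ventral ones, and the means of 93.9 ± 4.42 and 105 ± 2.09 FPKM (SD, n = 4) differed by 11.7%. The log2 ratio was 0.16 ± 0.04 (SE), short of the 20% bound, and the gene was not called, nor was it called without that bound. Only 2.28% of the genes tested had a smaller SD of log2(FPKM + 1) within regions than Ntrk2, while its mean was above that of 96.7% of them. The log2 ratio of Ntrk2 was 0.030 under the headers' regions and 0.19 in the 4 libraries on which both sources agree. As FPKM is summed over transcripts, full-length and truncated TrkB were not separated.

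Ntrk3, on the minus strand at chr7:78175959-78738012, had 27.2, 24.7, 24.3 and 25.9 FPKM in dorsal libraries 1 to 4 and 26.6, 31.7, 31.4 and 27.8 FPKM in ventral libraries 1 to 4. The regions overlapped, since ventral library 1 lay below dorsal library 1. The means were 25.5 ± 1.31 and 29.4 ± 2.57 FPKM (SD, n = 4), a log2 ratio of 0.20 ± 0.07 (SE), and the gene was not called. Both Trk receptor genes thus had ratios above 0, in the direction of Ntf3 and opposite to Bdnf. The FPKM of Ntrk2 was 3.69 ± 0.202 times that of Ntrk3 in dorsal and 3.59 ± 0.301 times in ventral libraries (SD, n = 4), so that the balance of the receptor genes overlapped between regions.

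Set against its ligand gene, each Trk receptor gene had a different relation in the 2 regions. The FPKM of Ntrk2 was 6.77 to 8.66 times that of Bdnf in dorsal libraries and 11.6 to 15.6 times in ventral libraries. The FPKM of Ntrk3 was 31.4 to 56.0 times that of Ntf3 in dorsal libraries and 11.2 to 15.4 times in ventral libraries. Neither range overlapped between regions, and the ratios moved in opposite directions. This follows from the opposite gradients for which the ligand genes were chosen, beside smaller differences of the receptor genes, and nothing further is read from it. In ventral libraries the means of both ratios were close to each other, at 13.1 ± 1.72 for Ntrk2 over Bdnf and 13.1 ± 1.97 for Ntrk3 over Ntf3 (SD, n = 4), whereas in dorsal libraries they were 7.45 ± 0.856 and 44.6 ± 10.7 (SD, n = 4). These are ratios of transcript levels and say nothing of protein.

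Ngfr was near the lower end of detection. The gene lies on the minus strand at chr11:95568818-95587735, and the authors marked it as having too few alignments to test. It was listed at 0.106, 0.188, 0.172 and 0.208 FPKM in dorsal libraries 1 to 4 and at 0.130, 0.134, 0.315 and 0.161 FPKM in ventral libraries 1 to 4. The regions overlapped, the log2 ratio was 0.13 ± 0.39 (SE), and no difference could be detected at this level. The sign of the ratio rested on single libraries, at -0.25 without ventral library 3 and -0.035 without dorsal library 1. It was -0.064 under the headers' regions and 0.085 in the 4 libraries on which both sources agree. In the adult forebrain p75 is known above all from cholinergic neurons of the basal forebrain. Of their markers, Chat and Slc5a7 together summed to 0.163 to 0.225 FPKM in dorsal and 0.0903 to 0.221 FPKM in ventral libraries.

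Sort1, on the plus strand at chr3:108284082-108361511, had 85.5, 98.6, 94.6 and 100.7 FPKM in dorsal libraries 1 to 4 and 86.8, 80.4, 88.9 and 79.6 FPKM in ventral libraries 1 to 4. The regions overlapped because dorsal library 1 lay below ventral libraries 1 and 3. The means were 94.8 ± 6.73 and 83.9 ± 4.64 FPKM (SD, n = 4), and the log2 ratio was -0.18 ± 0.06 (SE), in the direction of Bdnf and not called. Exons of Sort1 overlap the gene model Gm12523. Under the headers' regions the log2 ratio was 0.0082 for Ntrk3 and 0.014 for Sort1, and in the 4 libraries on which both sources agree it was 0.21 and -0.17.

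The order of the levels over all 8 libraries was not used to choose the members. It was examined with exact paired permutation tests (two-sided sign flips of log2 FPKM differences, adjusted over 5 neighbouring pairs). The pairs and their direction were taken from the means of the same 8 libraries and were not predicted beforehand. The p-values thus describe only how uniform each step was across libraries. Ntrk2 and Sort1 led with means of 99.4 ± 6.71 and 89.4 ± 7.91 FPKM (SD, n = 8). They did not differ beyond their spread (exact permutation p = 0.0781, adjusted p = 0.0781), with Ntrk2 the higher in 5 of 8 libraries, namely in 1 of 4 dorsal and 4 of 4 ventral libraries. Ntrk3 followed at 27.4 ± 2.79 FPKM, Bdnf at 10.4 ± 2.60 FPKM, Ntf3 at 1.43 ± 0.892 FPKM and Ngfr at 0.177 ± 0.0649 FPKM (SD, n = 8). Each of these 4 steps had the same direction in 8 of 8 libraries (exact permutation p = 0.00781, the smallest that 8 libraries allow, adjusted p = 0.00977). The sign flips treat the 8 libraries as independent, although both regions came from the same 4 groups of mice, and within a single region each of the 4 steps had an exact permutation p of 0.125, the smallest that 4 libraries allow. The receptor and sorting receptor genes other than Ngfr were therefore above both ligand genes in every library. The step from Bdnf to Ntf3 was the most variable of them, between 3.22-fold and 28.5-fold.

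The genes with the pattern most like each member were found by Pearson's r of log2(FPKM + 1) over the 8 libraries, which share the regional difference. Bdnf was closest to Bcat1 (r = 0.97), followed by Dync1li1 and Apln. Ntf3 was closest to Cpne5 (r = 0.99), followed by Nmbr, the neuromedin B receptor gene, and Unc5d, a netrin receptor gene. Nmbr had 3.25 FPKM in dorsal and 9.81 FPKM in ventral libraries on average, a log2 ratio of 1.59, and Unc5d had 5.73 and 9.14 FPKM. Ntrk2 was closest to Hspa12a (r = 0.98), Shisa7 and 4922501L14Rik. Ntrk3 was closest to Dyx1c1 (r = 0.95), Narg2 and Susd4, and Sort1 to Gab1 (r = 0.97), Tmcc3 and Gm3555. After the region means were subtracted, the closest to Bdnf were Rps26 (r = 0.97), Wdr6 and 1700037H04Rik, and the closest to Ntf3 were Kcnj3 (r = 0.97), Zbtb34 and Tmc4. None of the genes closest to Bdnf or Ntf3 over all libraries was also among the 3 closest within regions. These genes are the highest of all genes tested over only 8 libraries, and such a search can give a high r without any relation. Wdr6 was at 8.20 FPKM in ventral library 2, against 9.54 to 9.77 FPKM in the other ventral libraries, and Bdnf was lowest in that library too.

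Of the other sortilin family genes, 4 were tested and 1 was called. Sorl1, which encodes the sorting receptor SorLA, was higher in the dorsal region. It had 50.7, 50.3, 48.8 and 53.8 FPKM in dorsal libraries 1 to 4 and 36.6, 38.9, 36.1 and 39.4 FPKM in ventral libraries 1 to 4, with no overlap. The log2 ratio was -0.43 ± 0.04 (SE, limma adjusted p = 0.00355). Its exons overlap the gene model Gm16214. Sorcs2, a receptor of the same family that binds neurotrophin precursors, had a ratio in the other direction, with 4.56 to 5.67 FPKM in dorsal and 5.67 to 7.07 FPKM in ventral libraries, which met without overlapping, but it did not pass (log2 ratio 0.38 ± 0.10 SE, limma adjusted p = 0.0845). Sorcs1 (log2 ratio -0.18, limma adjusted p = 0.546) and Sorcs3 (0.04, limma adjusted p = 0.888) were not called. Ntf5, the gene of neurotrophin-4, did not exceed 0.0774 FPKM in any library.

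Of 12 pro-neurotrophin processing genes, 8 were tested and 1 was called. Pcsk1, which encodes the proprotein convertase PC1/3 of secretory granules, was higher in the dorsal region, with 21.2, 20.8, 19.7 and 17.0 FPKM in dorsal libraries 1 to 4 and 13.7, 14.1, 14.4 and 12.8 FPKM in ventral libraries 1 to 4. The regions did not overlap, and the log2 ratio was -0.51 ± 0.08 (SE, limma adjusted p = 0.00942). With FPKM rescaled to one total the call was lost (limma adjusted p = 0.0534). Pcsk2, the convertase PC2, did not overlap between regions either, at 85.5 ± 4.11 and 73.1 ± 2.39 FPKM (SD, n = 4), but did not pass (log2 ratio -0.23 ± 0.04 SE, limma adjusted p = 0.0714). Pcsk5 did not overlap in the opposite direction, with at most 4.75 FPKM in dorsal and at least 5.01 FPKM in ventral libraries, and did not pass either (log2 ratio 0.41 ± 0.14 SE, limma adjusted p = 0.137). Furin (0.14), Pcsk6 (-0.26), Pcsk7 (-0.05), Plat, the tissue plasminogen activator gene (0.03), and Serpini1, the neuroserpin gene (0.06), were not called, with limma adjusted p between 0.546 and 0.891. Mmp9 stayed below the filter, and Plg and Mmp3 were listed at 0 in every library, and a value of exactly 0 in an FPKM table can also be a failed estimate.

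**Figure D3:**
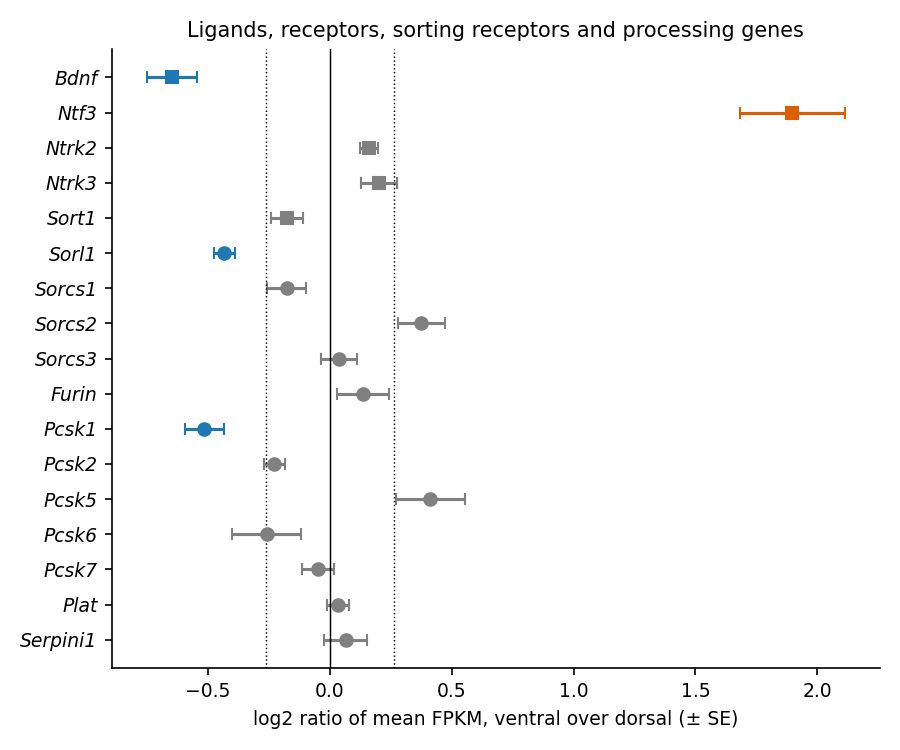
Log2 ratio of mean FPKM, ventral over dorsal, with its SE for the tested ligand, receptor, sorting receptor and processing genes; squares are the members, circles other genes, blue and orange mark D>V and V>D calls and grey no call, and dotted lines mark the 20% bound. Ntf3 at 1.90 lies apart from all others, and Bdnf, Pcsk1 and Sorl1 lie left of the bound at -0.65, -0.51 and -0.43. The colours of the members are a description and no test, since the contrast chose the members.

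Downstream of the receptors, the calls in each list stand beside 2.15% D>V and 1.45% V>D among all genes tested. Of 24 Trk adaptors and modulators tested, 0 were called D>V and 1 V>D by limma, and at an unadjusted p under 0.05 there was 1 in each direction. The called gene was Ndn, which encodes necdin, a protein that binds Trk and p75 receptors, with 49.0 to 53.0 FPKM in dorsal and 60.7 to 67.7 FPKM in ventral libraries and a log2 ratio of 0.38 ± 0.04 (SE, limma adjusted p = 0.00778). Of 16 p75 partners tested, limma called 0 in either direction, and 2 had ratios above 0 and 0 below it at an unadjusted p under 0.05. Of 33 genes of the MAPK, PI3K and CREB cascade tested, limma called 0 D>V and 1 V>D, with 4 and 2 genes at an unadjusted p under 0.05. Rps6ka2, an RSK kinase gene, was that V>D gene, at 4.38 ± 0.778 and 6.29 ± 0.395 FPKM (SD, n = 4, log2 ratio 0.52, limma adjusted p = 0.0455). Its call was lost without each library in turn other than dorsal library 1, with adjusted p between 0.0651 and 0.132, and with FPKM rescaled to one total (limma adjusted p = 0.0578).

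Among the activity-regulated genes, which like Bdnf are induced by synaptic activity and calcium, 16 of 22 tested had ratios below 0. Their median log2 ratio was -0.27, beside -0.01 over all genes tested, and 3 were called D>V and 1 V>D. A median below 0 was not particular to this list, at -0.30 for endothelial and mural and -0.86 for oligodendrocyte markers. The list was written with earlier results of these data known, and nothing is read from its counts. Dusp6, which encodes a phosphatase of ERK, had 9.64, 7.07, 8.80 and 8.39 FPKM in dorsal and 4.62, 3.61, 4.66 and 4.38 FPKM in ventral libraries 1 to 4 (log2 ratio -0.97 ± 0.12 SE, limma adjusted p = 0.00216). Homer1, a synaptic scaffold gene, was called D>V at 40.6 ± 5.60 and 28.7 ± 3.35 FPKM (SD, n = 4, log2 ratio -0.50, limma adjusted p = 0.0403). Its FPKM was summed over 12 annotated transcripts, which were not separated. The call of Homer1 was lost without dorsal library 1, 2 or 4 and without ventral library 1, 3 or 4, with adjusted p between 0.0658 and 0.106, and with rescaling to one total (limma adjusted p = 0.105). The third D>V gene was Pcsk1, which is in both lists. Sst, the somatostatin gene and a marker of interneurons, was V>D, at 109 ± 29.4 and 220 ± 41.1 FPKM (SD, n = 4, log2 ratio 1.01, limma adjusted p = 0.0147), a call that was lost without dorsal library 2 (limma adjusted p = 0.0553). Of the genes that did not pass, 2 immediate early genes were picked after their values were seen, Arc (log2 ratio -0.98 ± 0.33 SE, limma adjusted p = 0.0958) and Egr1 (-0.53 ± 0.15 SE, limma adjusted p = 0.0629). Arc overlapped between regions, with 11.4 FPKM in dorsal library 2 and 13.6 FPKM in ventral library 3. Ratios above 0 were found for 6 of the 22 genes, among them Fosl2 (0.22), Scg2 (0.21) and Nr4a3 (0.11), which were not called.

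For the related GDNF family, 4 of 10 genes were tested. Gfra2, the neurturin receptor gene, had 21.6, 23.9, 23.2 and 30.7 FPKM in dorsal and 12.3, 12.1, 15.6 and 15.7 FPKM in ventral libraries 1 to 4, with no overlap. It was called D>V (log2 ratio -0.84 ± 0.16 SE, limma adjusted p = 0.00654). Gfra1, Gfra4 and Ncam1 were not called, and the signalling receptor gene Ret had a mean near 0.196 FPKM.

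With each gene of the 7 lists counted once, 111 genes other than the members were tested, of which 5 (4.50%) were D>V and 3 (2.70%) V>D. The shares among all genes tested were 2.15% and 1.45%. As the 7 lists were written with earlier results of these data known, nothing is read from the difference. Under the headers' regions limma called 0 of these genes and 10 had an unadjusted p under 0.05. In the 4 libraries on which both sources agree it called 0 as well, with 18 genes at an unadjusted p under 0.05, in a comparison of 2 against 2 libraries. The log2 ratios of the 8 called genes under the headers' regions were 0.084 for Sorl1, -0.093 for Pcsk1, -0.031 for Ndn, -0.18 for Rps6ka2, -0.24 for Dusp6, 0.014 for Homer1, 0.16 for Sst and 0.18 for Gfra2, with limma adjusted p between 0.955 and 0.994. In the 4 libraries on which both sources agree they were -0.35 for Sorl1, -0.60 for Pcsk1, 0.36 for Ndn, 0.34 for Rps6ka2, -1.21 for Dusp6, -0.48 for Homer1, 1.24 for Sst and -0.69 for Gfra2, with limma adjusted p between 0.252 and 0.640. Over all 13674 genes tested, 721 had an unadjusted limma p under 0.05 with the headers' regions and 2191 with those of the authors' comparison. The paper reports that ventral to dorsal ratios of its RNA-Seq correlated with those of in situ hybridization images for layer-specific and significant genes. The calls given here hold for the regions of the authors' comparison only. None of the 8 genes overlapped between those regions, so the direction of their ratios in those 4 libraries was fixed in advance and supports nothing.

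**Figure D4:**
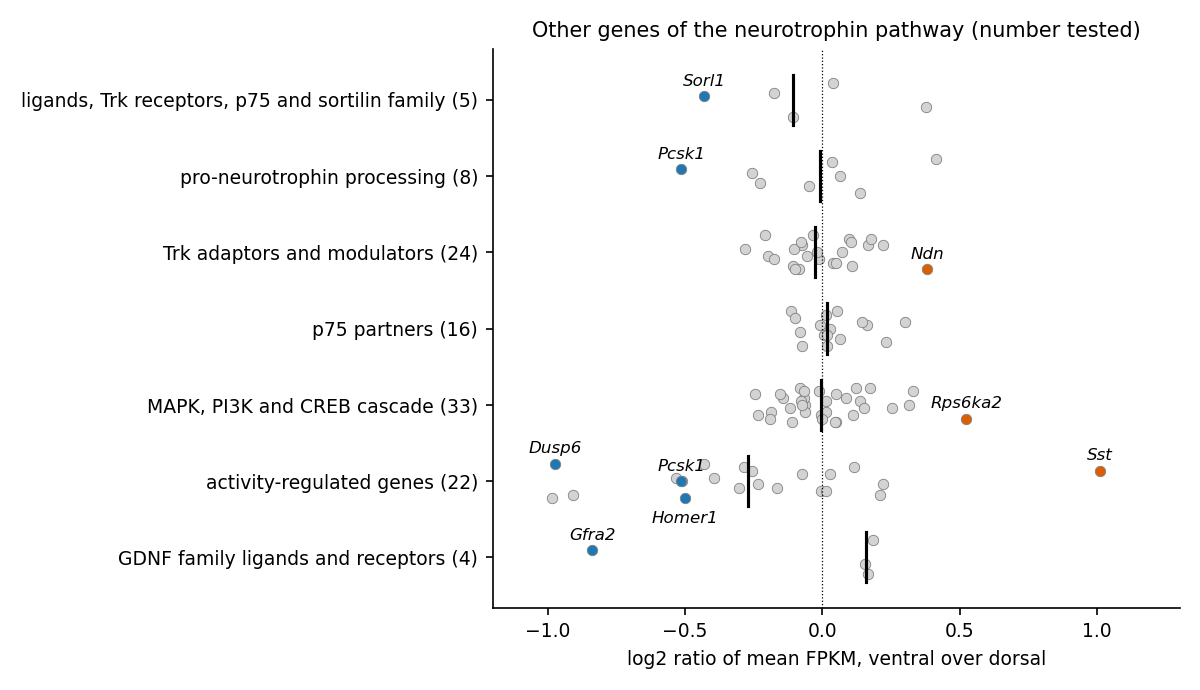
Log2 ratio of mean FPKM, ventral over dorsal, of the tested genes in 7 pathway lists (number tested in brackets), 1 point per gene, with D>V calls in blue, V>D calls in orange, other genes in grey and the list median as a black bar; vertical position within a list carries no meaning. The median of the activity-regulated genes is -0.27, and those of the adaptor, p75 partner and cascade lists are -0.03, 0.02 and -0.01.

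Markers of some other cell types moved with the regions, while those of others were not called. All 8 oligodendrocyte markers were D>V, with a summed level of 837 to 1104 FPKM in dorsal and 461 to 605 FPKM in ventral libraries, the direction of Bdnf, Sorl1 and Sort1. Of 8 astrocyte markers limma called 0, and 5 had ratios above 0 and 3 below it. At an unadjusted p under 0.05 there were 3, all higher in the ventral region without overlap, the direction of Ntrk2. These were Gfap (log2 ratio 0.27), Aqp4 (0.20) and Slc1a3 (0.16). The summed level of the 8, at 837 to 908 FPKM in dorsal and 788 to 857 FPKM in ventral libraries, overlapped. Most of that sum was Slc1a2, at means of 682 and 635 FPKM, which went the other way (-0.10). Limma also called 0 of 3 oligodendrocyte precursor, 5 microglia, 7 endothelial and mural and 3 general GABAergic markers. The 3 precursor markers had ratios above 0, opposite to the oligodendrocyte markers. Of 6 leptomeningeal markers tested 2 were V>D (Dcn and Igf2), at a summed level of 923 to 1281 and 979 to 1466 FPKM, the direction of Ntf3. Of 6 markers of CA1, CA3 and subiculum 2 were D>V (Wfs1 and Bok) and 3 V>D (Fibcd1, Fn1 and Nts), at 84.6 to 108 and 73.1 to 89.2 FPKM in sum. In the paper Wfs1 is also an example of a layer-specific gene of the MEC itself, and Nts a gene of its layer Va. Levels of Wfs1 and Nts therefore do not tell hippocampal or subicular tissue from MEC. Interneuron markers differed in both directions. Pvalb, at 15.7 ± 2.15 and 6.63 ± 0.961 FPKM (SD, n = 4), was D>V (log2 ratio -1.24, limma adjusted p = 0.000942), as was Npy (-1.02, limma adjusted p = 0.00279), whereas Tac1 (1.03, limma adjusted p = 0.00178) and Sst were V>D. None of these markers was at 0 in all libraries. Their part in the differences of the members was not tested.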

How the data were processed

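The authors aligned paired-end fragments with TopHat2 2.0.8 to GRCm38 and obtained gene-level FPKM with Cuffdiff, which scales libraries to each other. The deposited FPKM of 8 libraries were used. The authors' fold changes, p-values and q-values were not used. A further 4 columns of per-sample values (fragments and FPKM by read group) were not used because their conditions carry no region name. The count-based test planned on fragments was therefore replaced by its named substitute, limma 3.58.1 in R 4.3.3 with a mean-variance trend, unpaired, on log2(FPKM + 1). Libraries have the region of the authors' comparison: for 1435 of 1435 genes in the supplementary dataset the means matched within 0.1%, against 14 under the headers.

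Genes were tested if the authors' table marked their alignments as sufficient and they averaged 1 FPKM or more. For a call, the p adjusted by the Benjamini-Hochberg method had to lie under 0.05 and the ratio of mean FPKM beyond 1.2-fold. SE of log2 ratios came from the SD of each region. The members and gene lists were chosen with earlier results of these data known. Named genes were the members, the other ligands, receptors, sortilin family and processing genes, called genes of the other lists (at most 8 per list), and the 3 most correlated genes per member. Some genes that this rule takes are not reported here. Gene positions are those of GENCODE M21. The fit was tested on simulated data. Python 3.11.15, NumPy 2.4.6, SciPy 1.17.1, pandas 2.3.3 and matplotlib 3.10.9 were used. Alternatives covered the pseudocount, filters, bound, scaling, regions and single libraries. Both regions came from the same 4 groups of mice, but which libraries share a group is not given in the sources used here. The tests therefore treat libraries as unpaired and independent, although the 8 libraries are not 8 independent pools. The limma p-values set a regional difference against the spread between libraries of a region, in which pools, dissection and library preparation are not separated.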

Additional observations from a re-analysis of the deposited data

Results flagged for a closer look

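In 98 groups of 4 libraries checked, 3 held a library far from the other 3, where chance alone gives about 1 in 20. Ngfr was at 0.315 FPKM in ventral library 3, against 0.130 to 0.161 FPKM in the other ventral libraries. Wdr6 was at 8.20 FPKM in ventral library 2, against 9.54 to 9.77 FPKM in the others. Hspa12a was at 75.2 FPKM in dorsal library 4, against 67.6 to 68.9 FPKM in the others.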

How the results depend on the processing

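Regions named by the headers gave limma calls for 1 gene D>V and 0 V>D across all genes (721 at an unadjusted p under 0.05) and 0 and 0 in the pathway. The log2 ratios there were -0.16 for Bdnf, -0.016 for Ntf3, 0.030 for Ntrk2, 0.0082 for Ntrk3, 0.014 for Sort1, 0.014 for Homer1, 0.18 for Gfra2, -0.18 for Rps6ka2, -0.031 for Ndn and 0.084 for Sorl1. The 4 libraries with the same region in both sources gave 0 and 0 calls (1240 at an unadjusted p under 0.05), 0 and 0 in the pathway, and -0.82 for Bdnf. Rescaling to one total gave 195 D>V calls, 3 of them in the pathway, and Ntf3 had 1.02 as a difference of mean log2(FPKM + 1). Leaving out each library in turn gave 157 to 341 D>V and 91 to 191 V>D calls, and 4 to 6 and 1 to 4 in the pathway. The V>D count of the pathway fell to 1 without dorsal replicate 2. Without each library in turn the log2 ratios were -0.70 to -0.56 for Bdnf and 1.77 to 2.09 for Ntf3. Their direction could not change, since neither gene overlapped between regions. The cause of these changes was not tested. Rescaling for gene counts, and the 4 libraries for the pathway, were chosen after seeing the data. The alternatives on fragments (count models and levels) were not run, since fragments could not be assigned to regions by name. No paired analysis was possible because the labels do not say which libraries share a group of mice: replicate numbers follow accession order, and in the headers numbers 1 and 2 are all dorsal and 3 and 4 all ventral by the regions used here.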
